A study of Callithrix jacchus with 4 samples.

Results

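The teneurins, latrophilins and FLRT proteins form a trans-synaptic adhesion system, and their 10 genes were followed here in the frontal cortex of the common marmoset (Callithrix jacchus), a New World monkey used as a primate model in neuroscience. The genes were chosen by symbol (TENM1 to TENM4, ADGRL1 to ADGRL3 and FLRT1 to FLRT3), and all 10 were found among the 35108 genes of the deposited count table. All 10 also passed the filter on low counts, which kept 16385 genes. All libraries came from adult frontal cortex and fall into a pair of groups. The transgenic (TG) group held 2 libraries from animals labelled female that carry an APP transgene, a mutant form of the amyloid precursor protein gene under the human EF1α promoter, a broadly active promoter. The wild-type (WT) group held 2 libraries, for which no sex is labelled. The question is how gene expression in the cortex of transgenic marmosets differs from that of wild-type ones.

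Teneurins are large single-pass membrane proteins whose extracellular part reaches across the synaptic cleft and binds latrophilins, which are adhesion G protein-coupled receptors. FLRTs are membrane proteins with leucine-rich repeats that bind latrophilins from the opposite cell and can form a ternary complex with teneurins. In mice these contacts help axons choose their targets and help specify excitatory synapses.

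Total counts ranged from 12657323 to 18932180 per library. The counts of the 10 genes ran from 196 (TENM1, WT library 1) to 4865 (ADGRL1, TG library 2), which gives a counting error (1 over the square root of the count) of 7.14% to 1.43%. Levels are given in CPM, counts scaled to library size with TMM factors, and each fold change, TG over WT, comes from edgeR's fit. Its standard error (SE) was calculated as the absolute log2 fold change over the square root of edgeR's F statistic. That statistic uses a variance moderated across genes, so the SE is not the spread of a gene's own libraries alone. Nothing in the labels says that each library is a different animal. The WT libraries differed in the Y-linked gene KDM5D (2 and 243 counts), so they are unlikely to come from the same animal. The p-values rest on the spread between libraries, which between the TG libraries may be technical. APP, the gene whose mutant form the transgene carries, was at 2143 and 2748 CPM in TG libraries 1 and 2, against 1822 and 2182 CPM in WT libraries 1 and 2, so the groups overlapped. The sources used here do not state whether reads of the transgene are counted under APP, so these values do not measure its expression. TG library 2 stood apart in glial markers, its astrocyte markers summing to 3275 CPM, against 9325 to 11016 CPM in the other 3 libraries. It also stood apart over genes at large, by chi-square of the counts divided by its degrees of freedom. This value was 37.6 to 48.1 in pairs with TG library 2 and 7.62 to 12.9 in the other pairs. For TG library 1 it was 7.62 with WT library 2 and 37.6 with TG library 2. The value also grows with total counts, which were highest in TG library 2. Neuronal markers were present in every library, with SLC17A7, the vesicular glutamate transporter of cortical excitatory neurons, at 1258 ± 143 CPM in TG and 1163 ± 138 CPM in WT cortex (mean ± SD, n = 2 each).

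Among the 10 genes, the 3 largest fitted log2 fold changes were those of teneurins, 2 of the 3 latrophilins were slightly higher in transgenic cortex, and the FLRTs showed no common direction. In 4 of the 10 genes (TENM1, TENM3, ADGRL1 and ADGRL3) both TG libraries lay above both WT libraries, where 19.5% of all genes tested did so. In 0 of the 10 genes both TG libraries lay below both WT libraries, where 19.4% of all genes did. Counted in either direction, the 4 of 10 is close to the 38.9% of all genes tested whose groups did not overlap. In sign, 7 of the 10 genes were higher in TG cortex, where 49.6% of all genes tested were, and the median log2 fold change was 0.15, against 0.00 over all genes tested.

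In edgeR's quasi-likelihood test 0 of the 10 genes reached the threshold of 0.05 after adjustment, where 0% of all genes tested did. At an unadjusted p under 0.05 there were 2 of the 10, TENM1 and TENM3, where 5.62% of all genes tested were under it. Both were higher in TG cortex, as were 3.23% of all genes tested, and 0 of the 10 were lower, as were 2.39%. DESeq2 called 1 of the 10, TENM3, where it called 0.293% of all genes tested, and limma-voom called 0 of the 10, where 0% of all genes passed. The genes were chosen with earlier results of these libraries known, TENM3 among them. These p-values, and the shares of the 10 genes given above, are therefore no independent evidence. With 2 libraries in each group the smallest p of a two-sided exact permutation test is 0.33, and none is reported.

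**Figure D1:**
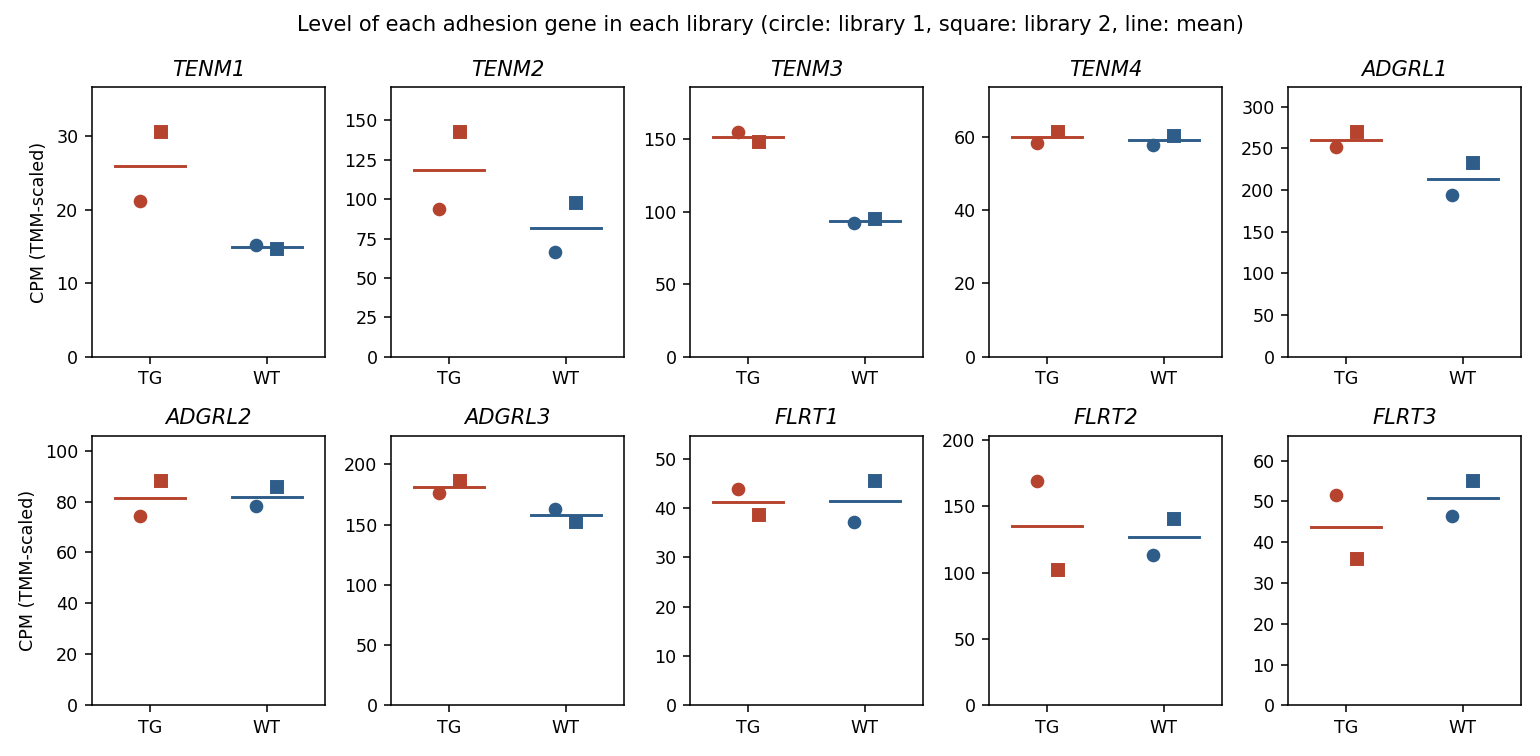
Level of each of the 10 genes in CPM (y axis, starting at 0) in the TG libraries (red, left) and the WT libraries (blue, right); circles are library 1, squares library 2 and lines the group means. TENM3 is at 155 and 148 CPM in TG libraries and at 92.6 and 95.4 CPM in WT libraries, while TENM4 lies between 57.8 and 61.3 CPM in all 4.

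Among the teneurins, TENM3 separated the groups most evenly. TENM3, which in mice guides the wiring of visual and hippocampal circuits, was at 155 and 148 CPM in TG libraries 1 and 2, against 92.6 and 95.4 CPM in WT libraries 1 and 2. Both TG libraries were therefore well above both WT libraries, and the libraries within each group lay close together. The lower TG library was 1.56 times the higher WT library, and 1.28% of all genes tested had a larger gap of this kind. Because TENM3 was chosen with its earlier result known, this share and its rank by p are no independent evidence. The fitted fold was 1.61 (log2 0.69 ± 0.12 SE, n = 2 per group; edgeR adjusted p = 0.789, rank 24 of 16385 by unadjusted p, and DESeq2 adjusted p = 0.0074). The log2 value lay between 0.65 and 0.72 under all 12 alternatives run. Without TG library 1 edgeR called 7.04% of all genes tested, TENM3 among them (log2 0.66, adjusted p = 0.0376), and over all alternatives its adjusted p ran from 0.0074 to 1.

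TENM1, the teneurin assigned to X, was the least counted of the family and had the largest fitted change. It was at 21.2 and 30.6 CPM in TG libraries 1 and 2, against 15.2 and 14.7 CPM in WT libraries 1 and 2. Here too the groups did not overlap, but TG library 2 was 1.44 times TG library 1. The fitted fold was 1.74 (log2 0.80 ± 0.23 SE, n = 2 per group; edgeR adjusted p = 0.789 and DESeq2 adjusted p = 0.606). It was also among the 7.04% of genes that edgeR called without TG library 1 (log2 1.03, adjusted p = 0.0291), and without TG library 2 the log2 value was 0.50; its adjusted p ran from 0.0291 to 1 over the alternatives.

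Sex can bear on an X-linked gene and is partly confounded with genotype. KDM5D, which lies on the Y chromosome, had 0 and 0 counts in TG libraries 1 and 2, against 2 and 243 counts in WT libraries 1 and 2. The WT library with Y-linked reads and the one nearly without them differed little in TENM1, WT library 2 being at 0.97 times the level of WT library 1. Over 528 tested genes assigned to X by symbol in another marmoset assembly (calJac240_pri), the median log2 fold change was 0.05 and 24.4% had both TG libraries above both WT libraries, against 0.00 and 19.7% for 14503 genes on other chromosomes. The part of sex in the TENM1 value was not tested.

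TENM2, also known as Lasso, a high-affinity partner of latrophilin 1, varied within both groups. It was at 93.9 and 142 CPM in TG libraries 1 and 2, against 66.2 and 97.7 CPM in WT libraries 1 and 2. TG library 1 lay below WT library 2, so the groups overlapped. The second library of each group was about 1.5 times the first, at 1.52 times in TG and 1.48 times in WT, a spread slightly larger than the fitted fold of 1.44 (log2 0.53 ± 0.28 SE; edgeR adjusted p = 0.789). The log2 value was 0.19 without TG library 2 and 0.27 without WT library 1, and it was 0.84 without WT library 2 and 0.80 without TG library 1.

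TENM4 was flat. This teneurin, which in mice is needed for oligodendrocyte differentiation and myelination, was at 58.4 and 61.3 CPM in TG libraries 1 and 2, against 57.8 and 60.3 CPM in WT libraries 1 and 2. Its highest library was 1.06 times its lowest, with a counting error of up to 3.66% in each, and 1.06% of all genes tested were flatter. The log2 fold change was 0.02 ± 0.13 SE (edgeR adjusted p = 0.973).

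Ratios to TENM4 within a library give the make-up of teneurin reads without any scaling between libraries. This denominator was chosen after its values were seen. Because TENM4 hardly varied in CPM, the ratios had to follow the CPM values above and are no separate support for them. The ratio of TENM3 to TENM4 counts was 2.65 and 2.42 in TG libraries 1 and 2, against 1.60 and 1.58 in WT libraries 1 and 2. For TENM1 the ratio to TENM4 was 0.36 and 0.50 in TG libraries, against 0.26 and 0.24 in WT libraries. Both ratios were higher in each TG library than in each WT library. For TENM2 it was 1.61 and 2.32 in TG libraries, against 1.15 and 1.62 in WT libraries, and the groups overlapped.

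As a share of all teneurin counts, TENM4 made up 17.8% and 16.0% in TG libraries 1 and 2, against 24.9% and 22.5% in WT libraries 1 and 2. Its exact 95% binomial intervals reached 18.9% at most in TG libraries and began at 21.2% in WT libraries. TENM3 made up 47.2% (45.7% to 48.6%) and 38.8% (37.6% to 39.9%) of teneurin counts in TG libraries, against 40.0% (38.2% to 41.8%) and 35.6% (34.0% to 37.1%) in WT libraries. The share of TENM3 was thus not separated between the groups, its value in TG library 2 lying between those of the WT libraries. These intervals cover counting error only, and a share of reads also depends on the length of each gene.

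**Figure D2:**
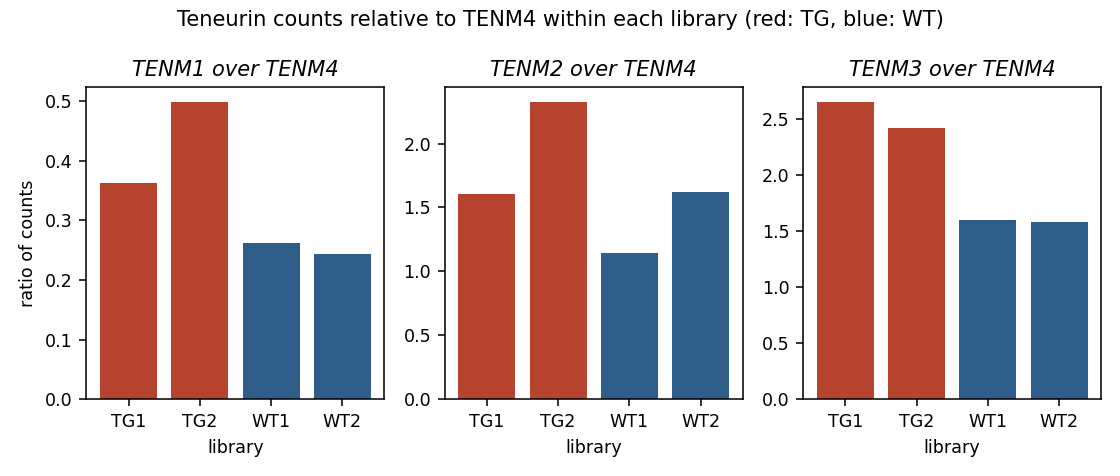
Ratio of TENM1, TENM2 and TENM3 counts to TENM4 counts (y axis, starting at 0) in each library, TG in red and WT in blue. For TENM1 and TENM3 both red bars are above both blue bars; for TENM2 the bar of TG library 1 (1.61) is just below that of WT library 2 (1.62).

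The latrophilins differed little between the groups. ADGRL1 encodes latrophilin 1, the receptor of the black widow toxin α-latrotoxin. It was at 251 and 269 CPM in TG libraries 1 and 2, against 194 and 232 CPM in WT libraries 1 and 2. Both TG libraries were above both WT libraries, with the lower TG library at 1.08 times the higher WT library. The fitted fold was 1.22 (log2 0.29 ± 0.14 SE; edgeR adjusted p = 0.789), and the log2 value was 0.16 without WT library 1.

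ADGRL3, whose product in mice sits at excitatory synapses and binds both FLRT3 and teneurins, was at 176 and 186 CPM in TG libraries 1 and 2, against 163 and 152 CPM in WT libraries 1 and 2. The groups did not overlap, again by a narrow margin of 1.08 times. The fitted fold was 1.15 (log2 0.20 ± 0.12 SE; edgeR adjusted p = 0.789). ADGRL2, which in mice is needed for synapses that hippocampal neurons receive from the entorhinal cortex, was at 74.4 and 88.2 CPM in TG libraries, against 78.3 and 85.6 CPM in WT libraries. Both WT libraries of ADGRL2 lay between the TG libraries, and the log2 fold change was -0.01 ± 0.15 SE (edgeR adjusted p = 0.986).

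Shares of the latrophilin counts differed by a few percentage points between libraries. ADGRL1 made up 50.1% (exact 95% binomial interval 48.9% to 51.3%) and 49.5% (48.5% to 50.5%) of them in TG libraries 1 and 2, against 44.5% (43.2% to 45.9%) and 49.4% (48.2% to 50.7%) in WT libraries 1 and 2. ADGRL2 made up 14.8% and 16.2% in TG libraries, against 18.0% and 18.2% in WT libraries. The share of ADGRL2 was lower in both TG libraries, where its intervals reached 16.95% at most, against a start of 16.98% in WT libraries. For ADGRL1 the interval of WT library 1 lay below those of the other 3 libraries, which overlapped. ADGRL3 made up 35.1% and 34.3% in TG libraries, against 37.5% and 32.3% in WT libraries, so its shares in TG libraries lay between those in WT libraries.

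The FLRT genes differed more between the TG libraries than between the groups. FLRT2, which also binds the netrin receptor UNC5D and acts as a repellent for migrating neurons in mice, was at 169 and 102 CPM in TG libraries 1 and 2, against 113 and 141 CPM in WT libraries 1 and 2. The TG libraries thus held both its highest and its lowest level, with TG library 2 at 0.60 times TG library 1. The log2 fold change was 0.09 ± 0.27 SE (edgeR adjusted p = 0.936), and it was 0.41 without TG library 2, -0.32 without TG library 1 and -0.06 without WT library 1.

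FLRT3, a ligand of latrophilin 3, was at 51.6 and 35.8 CPM in TG libraries 1 and 2, against 46.4 and 55.1 CPM in WT libraries 1 and 2. TG library 2 was the lowest of the 4 and TG library 1 lay between the WT libraries. The log2 fold change was -0.22 ± 0.22 SE (edgeR adjusted p = 0.827), and it was 0.02 without TG library 2. FLRT1 was at 43.9 and 38.6 CPM in TG libraries, against 37.2 and 45.6 CPM in WT libraries, with a log2 fold change of -0.005 ± 0.17 SE (edgeR adjusted p = 0.996). Both TG levels of FLRT1 lay between the WT levels.

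In the calJac240_pri annotation FLRT1 lies within the span of MACROD1 or overlaps it, FLRT3 likewise overlaps MACROD2 and TENM3 overlaps LOC128931659, and reads of such pairs can be told apart by strand only where the counting used it, which no source used here states. MACROD2 was at 46.4 and 67.1 CPM in TG libraries 1 and 2, against 42.1 and 55.8 CPM in WT libraries 1 and 2, so it was highest where FLRT3 was lowest. LOC128931659 was not analysed here, so its part in the TENM3 counts was not tested. MACROD1 was at 17.3 and 17.1 CPM in TG libraries, against 16.9 and 18.4 CPM in WT libraries.

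**Figure D3:**
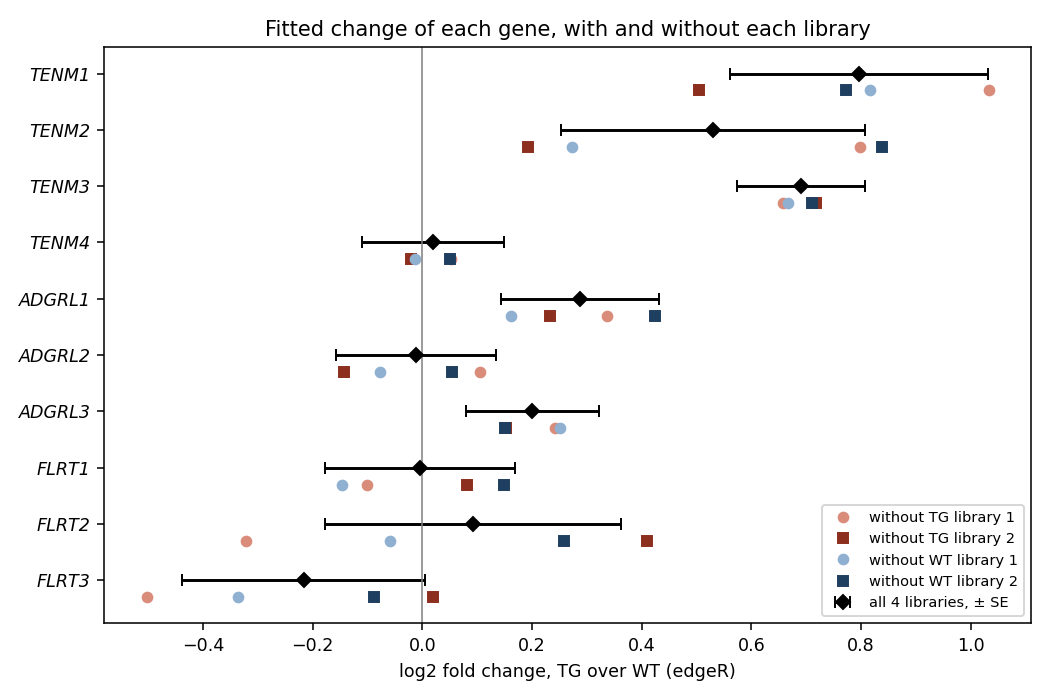
Fitted log2 fold change, TG over WT (x axis), of each gene in all 4 libraries (black diamond, with SE) and with 1 library left out (coloured marks). The marks of TENM3 stay between 0.66 and 0.72, those of TENM2 run from 0.19 to 0.84, and those of FLRT2 lie on both sides of 0.

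Markers of other cell types moved with several of these values. In a bulk sample, fewer cells of a type and less RNA per cell cannot be told apart. Summed over 10 astrocyte markers the level was 9822 and 3275 CPM in TG libraries 1 and 2, against 11016 and 9325 CPM in WT libraries 1 and 2. For 10 oligodendrocyte markers it was 3291 and 1223 CPM in TG libraries, against 3339 and 2626 CPM in WT libraries. TG library 2, the library with the highest TENM1 and TENM2 and the lowest FLRT2 and FLRT3, was thus also the lowest in astrocyte and oligodendrocyte markers.

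Neuronal marker sums differed less between libraries. For 10 excitatory neuron markers the summed level was 4815 and 5292 CPM in TG libraries 1 and 2, against 4499 and 5310 CPM in WT libraries 1 and 2, and the groups overlapped. In 1 of these markers both TG libraries lay above both WT libraries (19.5% of all genes tested), and in 2 both lay below (19.4%). SLC17A6 was among the lower ones, at 1.69 and 0.39 CPM in TG libraries, against 5.26 and 4.61 CPM in WT libraries. For 10 inhibitory neuron markers the summed level was 882 and 1006 CPM in TG libraries, against 785 and 796 CPM in WT libraries. Both TG libraries were thus above both WT libraries, as for TENM1, TENM3, ADGRL1 and ADGRL3. GAD1 and GAD2 made up most of this sum and of its difference between the groups. GAD1 was at 286 and 319 CPM in TG libraries, against 232 and 247 CPM in WT libraries. GAD2 was at 284 and 311 CPM in TG libraries, against 232 and 235 CPM in WT libraries. Of the 10 inhibitory neuron markers 9 were higher in sign, and 6 had both TG libraries above both WT libraries, where 19.5% of all genes tested did. PVALB, the calcium-binding protein of fast-spiking interneurons, had both below, at 29.6 and 25.4 CPM in TG libraries, against 44.5 and 35.5 CPM in WT libraries.

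Microglial and endothelial marker sums were lower in both TG libraries than in both WT libraries. Both TG libraries lay below both WT libraries in 5 of 10 microglial and 6 of 10 endothelial markers, against 19.4% of all genes tested. In the remaining markers of both lists the groups overlapped. The 10 microglial markers summed to 130 and 109 CPM in TG libraries 1 and 2, against 209 and 238 CPM in WT libraries 1 and 2, and the 10 endothelial markers to 268 and 205 CPM in TG libraries, against 413 and 300 CPM in WT libraries. The 10 markers of oligodendrocyte precursors summed to 359 and 199 CPM in TG libraries, against 367 and 285 CPM in WT libraries. Of 8 markers of pericytes and vascular muscle, 7 were lower in sign (median log2 fold change -0.44). RGS5 made up most of their summed level, at 180 and 194 CPM in TG libraries, against 181 and 174 CPM in WT libraries, and the other 7 summed to 47.0 and 26.2 CPM in TG libraries, against 51.3 and 46.7 CPM in WT libraries. The microglial, endothelial and inhibitory neuron sums separated the groups, as did TENM3, the inhibitory neuron sum mainly through GAD1 and GAD2. The astrocyte and oligodendrocyte sums of TG library 1 lay between those of the WT libraries.

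The 8 meningeal fibroblast markers summed to 247 and 47.5 CPM in TG libraries 1 and 2, against 47.3 and 179 CPM in WT libraries 1 and 2. FLRT1, FLRT2 and FLRT3 all had their highest levels in the same libraries, TG library 1 and WT library 2, so this was not particular to FLRT2. In no library was any marker of these 9 lists at 0 counts. The part of these cell types in the values of the teneurins and FLRTs was not tested.

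**Figure D4:**
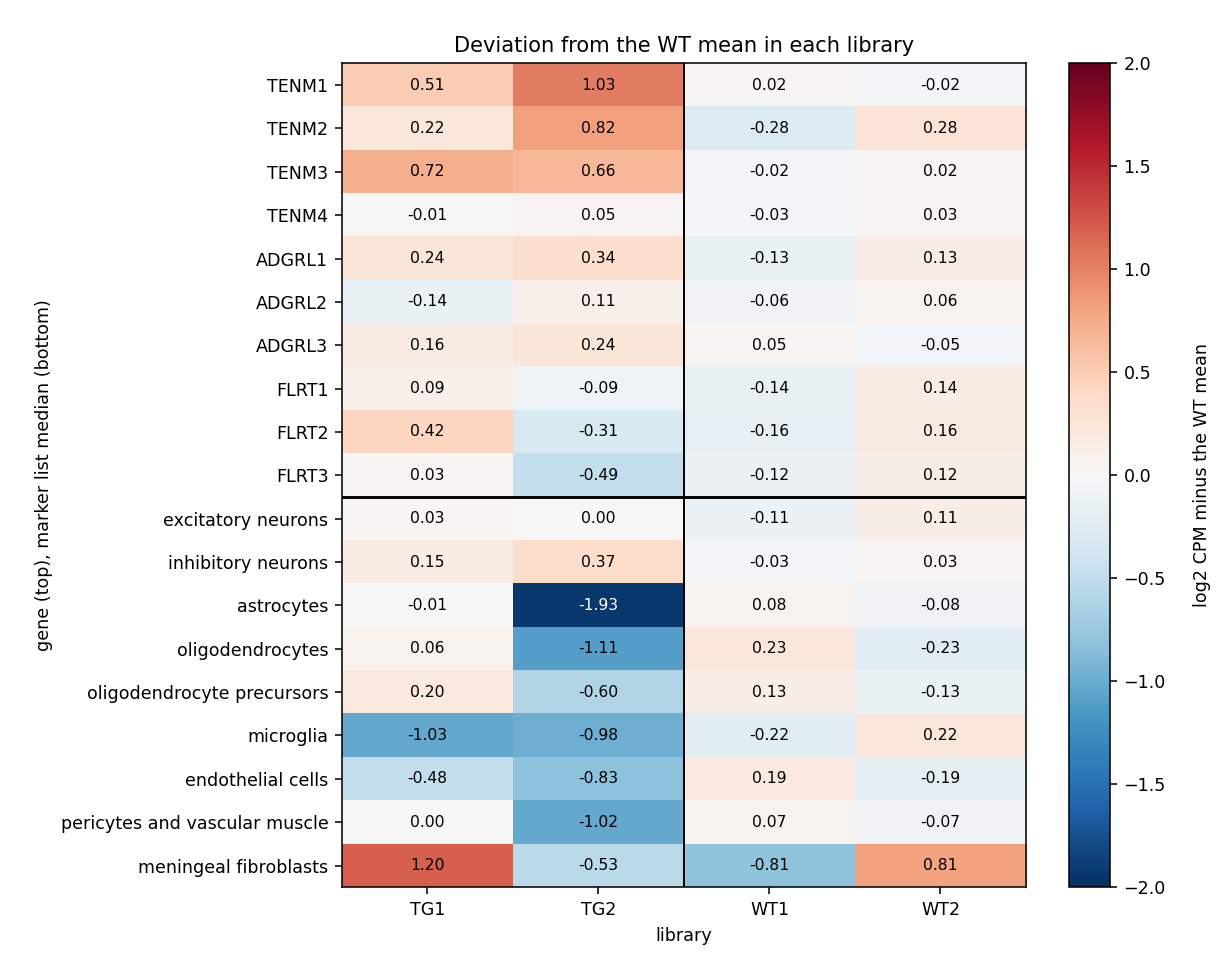
Log2 CPM minus the mean of the WT libraries (colour and printed value) for each gene (top) and, as the median over the genes of a list, for each marker list (bottom), with the libraries as columns. TENM3 is at 0.72 and 0.66 in the TG libraries, FLRT2 at 0.42 and -0.31, and the astrocyte list at -0.01 and -1.93.

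Other adhesion genes of the synapse were mostly higher in sign in TG cortex as well. Of 77 tested genes in 6 lists of binding partners and other synaptic adhesion molecules, 57 had a fitted value above 0 and 20 below, and their median log2 fold change was 0.14. In 29 of the 77 (37.7%, against 19.5% of all genes tested) both TG libraries lay above both WT libraries, and in 6 (7.79%, against 19.4%) below. After adjustment over all genes tested, 0 of the 77 passed in edgeR, where 0% of all genes did, and 0 in DESeq2, where 0.293% did. At an unadjusted edgeR p under 0.05 there were 6 of the 77, where 5.62% of all genes tested were under it. Of these, 5 were higher (3.23% of all genes tested) and 1 was lower (2.39%). The 10 teneurin, latrophilin and FLRT genes, with 40% above and 0% below, had shares like those of these lists. The lists, like the 10 genes, were chosen with earlier results of these data known. These shares, and those of each list below, are therefore no independent evidence.

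The other receptors of the 10 genes included 9 of 11 that were higher in sign (median log2 fold change 0.26). UNC5D, the netrin receptor that FLRT2 binds, was at 97.0 and 116 CPM in TG libraries 1 and 2, against 75.4 and 87.5 CPM in WT libraries 1 and 2 (log2 0.39 ± 0.16 SE; edgeR adjusted p = 0.789). FGFR1, a fibroblast growth factor receptor that FLRTs bind, was at 67.5 and 87.7 CPM in TG libraries, against 61.1 and 55.9 CPM in WT libraries. The rule that named both asks for groups that do not overlap, which held for 38.9% of all genes tested. In 7 of the 11 receptor genes, UNC5A, UNC5B, UNC5C and ROBO1 among them, the groups overlapped.

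Inside the cell, the partners of latrophilins and teneurins showed no common direction, with 7 of 12 higher in sign and a median log2 fold change of 0.04. GNA13, a G protein subunit through which latrophilins can signal, was at 57.8 and 32.2 CPM in TG libraries 1 and 2, against 58.8 and 59.7 CPM in WT libraries 1 and 2, and its low value was that of TG library 2. GNA11, another G protein subunit, was at 73.3 and 78.2 CPM in TG libraries, against 65.6 and 72.2 CPM in WT libraries. GNAS was not matched by symbol.

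Neuroligins, cerebellins and glutamate delta receptors, which form neighbouring trans-synaptic complexes with neurexins, were higher in sign in 8 of 10 genes (median log2 fold change 0.33). In 7 of the 10 both TG libraries lay above both WT libraries, where 19.5% of all genes tested did so. CBLN1, a secreted bridge between neurexins and delta receptors, was at 4.85 and 5.43 CPM in TG libraries 1 and 2, against 2.48 and 1.32 CPM in WT libraries 1 and 2 (log2 1.44 ± 0.41 SE; edgeR adjusted p = 0.789). CBLN3, a further cerebellin, was at 14.8 and 15.9 CPM in TG libraries, against 9.44 and 11.5 CPM in WT libraries. CBLN1 and CBLN3 were named by a rule that asks for groups that do not overlap. The other cerebellins, CBLN2, at 117 and 138 CPM in TG libraries against 104 and 162 CPM in WT libraries, and CBLN4, at 46.8 and 56.5 CPM in TG libraries against 36.4 and 66.7 CPM in WT libraries, overlapped between the groups (log2 -0.06 and 0.00).

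Among the leucine-rich repeat adhesion genes 14 of 20 were higher in sign (median log2 fold change 0.12). LRRTM2, a postsynaptic ligand of neurexins, was at 101 and 96.6 CPM in TG libraries 1 and 2, against 74.5 and 79.2 CPM in WT libraries 1 and 2 (log2 0.36 ± 0.12 SE; edgeR adjusted p = 0.789). LRFN2, a postsynaptic adhesion molecule, was at 31.0 and 27.6 CPM in TG libraries, against 19.0 and 25.2 CPM in WT libraries. Like TENM3, LRRTM2 differed little within each group.

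Of the LAR phosphatases and other adhesion hubs 11 of 14 were higher in sign (median log2 fold change 0.29). IL1RAP, a partner of presynaptic phosphatases, was at 31.2 and 32.4 CPM in TG libraries 1 and 2, against 22.9 and 25.0 CPM in WT libraries 1 and 2. CADM1, a homophilic synaptic adhesion molecule, was at 266 and 353 CPM in TG libraries, against 229 and 235 CPM in WT libraries. The edgeR adjusted p of both was 0.789.

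In the list of other adhesion G protein-coupled receptors, to which latrophilins belong, 8 of 10 were higher in sign (median log2 fold change 0.23). ADGRG1, which in mice acts in oligodendrocyte precursors and in the developing cortex, was at 104 and 80.6 CPM in TG libraries 1 and 2, against 134 and 118 CPM in WT libraries 1 and 2, lower in both TG libraries (log2 -0.45 ± 0.17 SE; edgeR adjusted p = 0.789). CELSR1, a cadherin of planar cell polarity, stood at low levels, at 3.31 and 3.88 CPM in TG libraries, against 0.62 and 1.61 CPM in WT libraries. ADGRL4, a relative of the latrophilins found in endothelial cells, was at 3.31 and 6.15 CPM in TG libraries, against 5.65 and 2.34 CPM in WT libraries, and the groups overlapped.

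**Figure D5:**
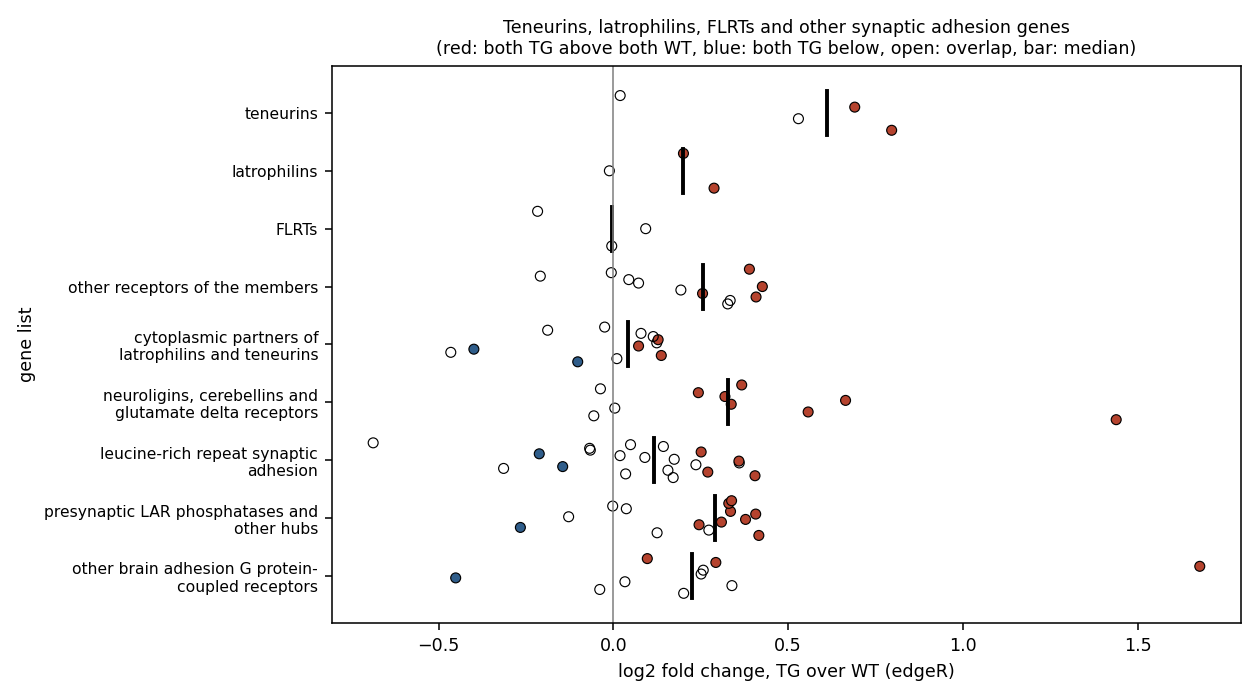
Fitted log2 fold change, TG over WT (x axis), of each gene in the 3 families (top) and in 6 lists of other synaptic adhesion genes (below); red points have both TG libraries above both WT libraries, blue points both below, and bars are list medians. The teneurin median is 0.61, the latrophilin median 0.20 and the FLRT median 0.00.

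The genes most like each non-overlapping member were found by the root mean square difference of mean-centred log2 CPM over the 4 libraries, among 9831 genes with a symbol and at least 10 CPM on average. TENM3 was near SHISAL1 (difference 0.043) and PPP4R4 (0.061). SHISAL1 was at 117 and 114 CPM in TG libraries 1 and 2, against 65.8 and 72.3 CPM in WT libraries 1 and 2. In edgeR the adjusted p of SHISAL1 and PPP4R4 was 0.789, and in DESeq2 it was 0.00889 for SHISAL1 and 0.0776 for PPP4R4.

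TENM1 was nearest to ZSCAN1 (0.019), FAM124A (0.027) and RPRML (0.053). ADGRL1 was nearest to NMD3 (0.004), POMGNT2 (0.014) and MFSD6 (0.015), and ADGRL3 to PBRM1 (0.003), EIF4A3 (0.009) and CASK (0.011). With 4 libraries and this many genes, a close match is no rarity. None of the genes named here was itself a teneurin, latrophilin or FLRT gene. Between the members themselves, the closest pair was TENM4 and ADGRL2 (0.068) and the most distant was TENM1 and FLRT3 (0.63).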

How the data were processed

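RNA of adult marmoset frontal cortex was sequenced in 4 libraries, 2 TG and 2 WT, grouped by their titles. The table the authors deposited holds raw read counts, 1 column per library and 1 row per gene symbol. Per the submitters' processing notes, the tools were featureCounts 1.5.2, STAR 2.5.3a and kallisto 0.46.2, with no role stated; genome build, annotation and strand setting: not given in the sources used here. The members and lists were chosen with earlier results of these data known. Counts were analysed in R 4.3.3 with edgeR 4.0.16: filterByExpr (16385 genes), TMM scaling, and the quasi-likelihood F-test on genotype alone (2 residual degrees of freedom). Benjamini-Hochberg adjustment ran over the 16385 genes (threshold 0.05). Log2 CPM used a prior count of 2. A count of 3 corresponds to 0.166 to 0.232 CPM. Counts differed by more than counting noise between any pair of libraries (chi-square over genes divided by its degrees of freedom, 7.62 to 48.1). Each library was therefore counted as 1 sample, though such differences do not show that the libraries come from different animals.

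The genes named from the 6 lists are the 2 per list with the smallest edgeR p among those whose groups did not overlap. ADGRL4, MACROD1, MACROD2, KDM5D, SLC17A6, SLC17A7, CBLN2, CBLN4, PVALB, RGS5, UNC5A, UNC5B, UNC5C and ROBO1 were added after the values were seen. The likeness rule took 3 genes per non-overlapping member, of which 1 is not reported here. Alternatives were RLE scaling, no scaling, no count filter, a minimum mean count of 50, DESeq2 1.42.0, limma-voom (limma 3.58.1), a replicate block and leaving out each library; a crossed block was added after seeing the data. Where a group was left with 1 library, it was assumed to vary like the other group. The steps were tested on simulated data. Gene lengths and sequences were not used, so levels are not ranked between genes.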

Additional observations from a re-analysis of the deposited data

How the results depend on the processing

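The median log2 fold change of the 10 genes stayed positive under all alternatives run, between 0.074 (without WT library 1) and 0.204 (without WT library 2). edgeR called 0 genes of all tested as reported, 5 with no filter on low counts and 0 to 1154 when each library was left out in turn, and DESeq2 called 48. Of the 10 genes, 0 were called as reported, 1 by DESeq2 and 0 to 2 when a library was left out. The number whose groups did not overlap was 6 to 9 with a library left out, where 62.7% to 81.1% of all genes tested did not overlap, since a group of 1 overlaps less easily. TENM1, TENM2, TENM3, ADGRL1 and ADGRL3 kept a positive sign under all 12 alternatives. Values near 0 changed sign: TENM4 was -0.028 without scaling and -0.02 to 0.053 with a library left out; ADGRL2 was 0.001 with no count filter and -0.143 to 0.105 with a library left out; FLRT1 was 0.006 with no count filter, 0.000 with the crossed block and -0.146 to 0.149 with a library left out. FLRT2 ran from -0.321 to 0.41 and FLRT3 from -0.503 to 0.019 with a library left out. The cause was not tested. With the replicate number as a block edgeR called 0 genes and 0 of the 10, and the median of the 10 was 0.128; the crossed block gave the same 3 values. The labels do not say that equal numbers share an animal or day, and the differences between libraries 1 and 2 of the groups correlated at -0.137 over genes. Counting error per library was 1.93% to 2.89% for TENM3, 3.01% to 3.66% for TENM4 and 4.26% to 7.14% for TENM1, and a difference between libraries within these sizes would not be detectable at this depth.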
